A study of Mus musculus with 6 samples.

Results

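The vacuolar proton pump (V-ATPase) genes and the regulators of its assembly made up 31 of the 48587 genes in the count table. They were chosen by name: 10 genes for subunits of the membrane sector V0, 13 for subunits of the cytosolic sector V1, 2 for accessory proteins, 4 of the RAVE type (Dmxl1, Dmxl2, Rogdi, Wdr7) and 2 of the TLDc type (Ncoa7, Oxr1). All 31 had a row in the table, and 27 of them had enough counts to enter the test between groups. Atp6v0d2, Atp6v1b1, Atp6v1g3 and Atp6v1e2 did not.

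RNA on HA-tagged ribosomes was recovered with anti-HA beads from kidneys of neonatal mice, giving 3 Foxp1-deficient libraries (Cdh16Cre;Foxp1fl/fl;RiboTag) and 3 libraries from littermate controls (Cdh16Cre;Foxp1fl/+;RiboTag). All animals thus carried a Cre driven by Cdh16, a cadherin gene of tubule epithelium, a floxed allele of the forkhead factor gene Foxp1, and RiboTag, an allele that tags ribosomes with HA in cells with Cre activity. The treatment label was chronic acid load in the 3 Foxp1-deficient samples and vehicle in the 3 controls, while the protocols describe no acid load, so genotype and treatment cannot be told apart. No label says that replicates came from separate animals, and the spread behind each p-value may therefore be technical. The controls were heterozygous rather than wild type, and tagging depends on where the Cre is active.

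The V-ATPase uses ATP hydrolysis in V1 to turn a rotor, whose proteolipid ring in V0 carries protons across a membrane. Nearly every cell uses it to acidify lysosomes, endosomes and the Golgi, with widely expressed isoforms. Intercalated cells of the collecting duct also place it in the plasma membrane to secrete acid or base, with isoforms enriched in kidney. Pump activity is adjusted by release of V1 from V0, and the RAVE complex puts the sectors together again.

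Library totals ran from 9710048 to 18958196 counts in the Foxp1-deficient libraries and from 11264609 to 18206881 in the controls. Both libraries numbered 2 were the shallowest, with 14285 genes detected in Foxp1-deficient 2 and 13885 in control 2, against 18241 to 22190 in the other 4. Levels below are CPM, counts as a share of a TMM-scaled library total, unless raw counts are named. Foxp1 had 34.6, 11.4 and 29.3 CPM in Foxp1-deficient libraries 1, 2 and 3 and 48.8, 30.8 and 35.9 CPM in controls 1, 2 and 3. The groups overlapped, and the log2 fold change was -0.62 (SE 0.49, adjusted p = 0.9998 by edgeR's quasi-likelihood test). Foxp1 was the lower of each equally numbered pair in its Foxp1-deficient library, and with the replicate number as a block its log2 fold change was -0.72 (SE 0.28, unadjusted p = 0.0496, adjusted p = 0.853, edgeR). By markers of the labelled cell type, kidney tubular cells, the libraries numbered 3 stood apart from the other 4 in both groups. Cdh16 itself had 0.283, 2.42 and 42.1 CPM in Foxp1-deficient libraries 1, 2 and 3 and 0.332, 10.9 and 43.0 CPM in controls 1, 2 and 3. Of 8 markers of the thick ascending limb and distal tubule, all had a count in the libraries numbered 3, with 246 CPM summed in Foxp1-deficient 3 and 215 CPM in control 3. In the libraries numbered 1 and 2 their sum was at most 4.08 CPM in Foxp1-deficient libraries and 1.47 CPM in controls. The 12 proximal tubule markers summed to 91.7, 145.5 and 1301 CPM in Foxp1-deficient libraries 1, 2 and 3 and to 45.1, 148 and 1279 CPM in controls 1, 2 and 3. Summed stromal markers ran from 4211 to 19820 CPM in Foxp1-deficient libraries and from 7060 to 19320 CPM in controls. In Foxp1-deficient 1 and control 1 the stromal sums were 12270 and 12370 CPM beside the Cdh16 levels under 1 CPM. They were highest in Foxp1-deficient 3 and control 3, at 19820 and 19320 CPM, where Cdh16 was highest too. Whether the RNA came from Cdh16-expressing tubule cells alone was not tested.

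The promoter windows of 6 members are shown: 4 of the 5 kidney-enriched isoforms, which had a window, and 2 widely expressed genes picked because they hold an E-box. The 2 therefore give no comparison of E-box content with the kidney-enriched isoforms. Each window holds 250 bases before and 50 bases after a RefSeq start on GRCm38.p6, and 22 of the 31 members had one. Capitals mark CACGTG, the E-box core bound by TFE factors, and TGTTTAC, a forkhead core, each searched on both strands without overlap between the motifs. Atp6v1b1 lies at chr6:83742767-83743066 (+), Atp6v0a4 at chr6:38124537-38124836 (-), Atp6v1g3 at chr1:138273488-138273787 (+) and Atp6v1c2 at chr12:17324681-17324980 (-). Atp6v0d1 lies at chr8:105566015-105566314 (-) and Atp6v1a at chr16:44139210-44139509 (-).
Atp6v1b1: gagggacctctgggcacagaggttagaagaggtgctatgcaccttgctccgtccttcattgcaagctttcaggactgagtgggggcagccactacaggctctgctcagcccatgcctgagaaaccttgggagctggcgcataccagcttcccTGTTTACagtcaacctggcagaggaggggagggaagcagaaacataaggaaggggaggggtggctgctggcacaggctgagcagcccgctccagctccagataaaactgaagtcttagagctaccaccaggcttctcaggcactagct
Atp6v0a4: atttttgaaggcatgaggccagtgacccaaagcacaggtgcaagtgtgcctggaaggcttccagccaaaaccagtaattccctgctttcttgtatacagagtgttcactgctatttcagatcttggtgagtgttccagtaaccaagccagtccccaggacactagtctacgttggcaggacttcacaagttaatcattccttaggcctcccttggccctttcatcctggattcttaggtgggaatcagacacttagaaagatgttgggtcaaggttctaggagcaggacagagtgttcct
Atp6v1g3: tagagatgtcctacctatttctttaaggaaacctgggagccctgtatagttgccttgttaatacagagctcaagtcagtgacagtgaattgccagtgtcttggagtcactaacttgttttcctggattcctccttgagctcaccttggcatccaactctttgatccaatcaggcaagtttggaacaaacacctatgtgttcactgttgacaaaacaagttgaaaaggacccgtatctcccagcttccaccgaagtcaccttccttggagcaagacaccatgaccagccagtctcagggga
Atp6v1c2: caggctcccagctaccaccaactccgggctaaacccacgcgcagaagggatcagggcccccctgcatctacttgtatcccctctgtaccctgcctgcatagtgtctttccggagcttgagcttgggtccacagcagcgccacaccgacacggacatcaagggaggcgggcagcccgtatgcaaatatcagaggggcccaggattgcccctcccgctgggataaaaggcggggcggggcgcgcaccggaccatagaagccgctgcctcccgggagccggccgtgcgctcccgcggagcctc
Atp6v0d1: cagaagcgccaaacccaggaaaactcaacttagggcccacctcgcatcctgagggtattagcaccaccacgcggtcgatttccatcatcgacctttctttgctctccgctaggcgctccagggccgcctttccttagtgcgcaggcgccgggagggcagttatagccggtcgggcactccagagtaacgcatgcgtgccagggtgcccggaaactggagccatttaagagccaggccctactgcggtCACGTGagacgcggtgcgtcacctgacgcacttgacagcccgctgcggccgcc
Atp6v1a: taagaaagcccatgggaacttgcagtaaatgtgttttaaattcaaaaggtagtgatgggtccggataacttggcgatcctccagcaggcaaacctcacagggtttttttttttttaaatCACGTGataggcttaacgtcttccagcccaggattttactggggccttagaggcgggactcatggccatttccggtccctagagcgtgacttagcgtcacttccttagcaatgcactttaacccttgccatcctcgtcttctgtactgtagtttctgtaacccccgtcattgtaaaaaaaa
The forkhead letters stood in 1 of the 22 members with a window, Atp6v1b1, with the first base at -98 from the start. Over all 32851 windows the share was 3.65%. The E-box stood in 4 of the 22, Atp6v0b, Atp6v0d1, Atp6v0e and Atp6v1a, and in 7.15% of all windows, and Atp6v0b held 2. The 22 members had 28 windows together, so these counts of members are not shares of windows. Neither string was in the windows of Atp6v0a4, Atp6v1c2 and Atp6v1g3, or in that of Atp6v0a1, the widely expressed partner of Atp6v0a4. The RefSeq start used for Atp6v1c2 was 4629 bases inside the outermost exon of the deposited annotation, and those of Atp6v0a4 and Atp6v1g3 met it. That of Atp6v0a1 was 946 bases inside, so its window may miss sequence before the outermost exon. A match describes letters in a window and no binding was measured.

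The kidney-enriched isoforms were read almost only in the libraries numbered 3, in both groups alike, whereas their widely expressed partners were read in all 6. Atp6v1b1, the nucleotide-binding B subunit of intercalated cells, had raw counts of 0, 0 and 120 in Foxp1-deficient libraries 1, 2 and 3 and of 0, 0 and 91 in controls 1, 2 and 3. Atp6v1g3, a peripheral stalk subunit, had 0, 0 and 98 counts in Foxp1-deficient libraries and 0, 0 and 92 in controls. Atp6v0d2, a collar subunit also used by osteoclasts, had 0, 0 and 70 counts in Foxp1-deficient libraries and 3, 0 and 65 in controls. The presence of these transcripts therefore split by library number and not by group. Atp6v1c2, an isoform of the subunit that clamps the stalks, had 2, 0 and 37 counts in Foxp1-deficient libraries and 10, 0 and 31 in controls. Atp6v0a4, a kidney-enriched isoform of subunit a, had 85, 19 and 412 counts in Foxp1-deficient libraries and 42, 18 and 297 in controls. It was thus the kidney-enriched isoform with counts in every library. A count of 0 allows up to 3 counts, or 0.170 and 0.383 CPM in Foxp1-deficient libraries 1 and 2 and 0.199 and 0.315 CPM in controls 1 and 2.

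Within a library, the share of a kidney-enriched isoform among the counts per kilobase of exon of it and its partner does not depend on the library's depth. For B1 against B2 the share was 5.91% in Foxp1-deficient 3 (95% exact Clopper-Pearson interval 4.93 to 7.02) and 4.68% in control 3 (3.79 to 5.71). It was 0 in the other 4, where 3 counts would be 0.237% and 0.478% in Foxp1-deficient libraries 1 and 2 and 0.241% and 0.598% in controls 1 and 2. The intervals of the libraries numbered 3 overlapped, cover counting error only, and compare those 2 libraries rather than the conditions. Atp6v0a4 made up 9.33%, 2.52% and 22.7% of it and Atp6v0a1 in Foxp1-deficient libraries 1, 2 and 3 and 4.75%, 1.89% and 19.6% in controls 1, 2 and 3. That share was higher in the Foxp1-deficient library of each equally numbered pair, although both groups overlapped. The log2 ratio of a4 to a1, with 0.5 added to each count, averaged -3.43 in Foxp1-deficient libraries and -4.00 in controls, a difference of 0.58 beside a spread within groups of 1.79 (SD, n = 3 each). In Foxp1-deficient 3 and control 3, d2 made up 2.43% and 1.98% of the d pair, C2 4.04% and 3.15% of the C pair, and G3 2.61% and 2.48% of the G pair. The partner therefore held most of the counts per kilobase in all 5 pairs and all 6 libraries.

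**Figure D1:**
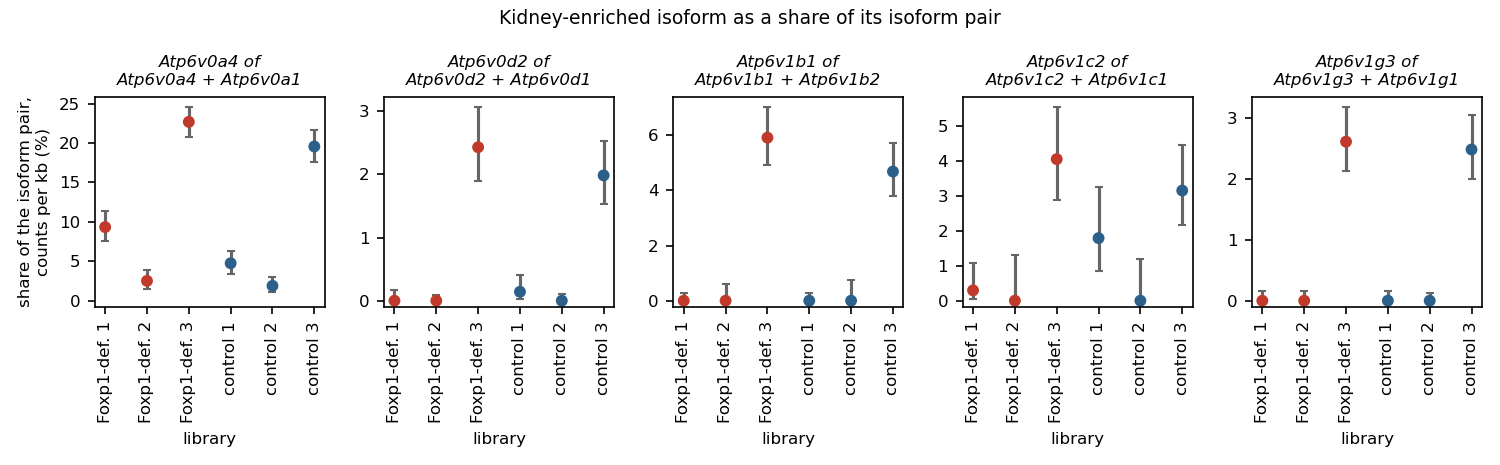
Share of each kidney-enriched isoform among the counts per kilobase of it and its widely expressed partner, in percent on the vertical axis of each panel, for Foxp1-deficient libraries (red) and controls (blue); bars are 95% exact binomial intervals for counting error. The libraries numbered 3 are the highest in every panel, with 22.7% and 19.6% for Atp6v0a4, and Atp6v1b1 and Atp6v1g3 are at 0 in the other 4.

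Markers of intercalated cells followed the same split. Foxi1, the forkhead factor gene of intercalated cells, which in mice is needed for their pump expression, had 0, 0 and 40 counts in Foxp1-deficient libraries 1, 2 and 3 and 0, 0 and 30 in controls 1, 2 and 3. The anion exchanger gene Slc4a9 had 0, 0 and 53 counts in Foxp1-deficient libraries and 0, 0 and 53 in controls. Of 15 intercalated cell markers, 15 had a count in each library numbered 3, against 7 and 5 in Foxp1-deficient libraries 1 and 2 and 6 and 3 in controls 1 and 2. Their summed level was 145, 20.1 and 67.9 CPM in Foxp1-deficient libraries and 92.0, 17.7 and 59.3 CPM in controls. Most of it in the libraries numbered 1 was Slc4a1, which red cell precursors also express, with 114 CPM in Foxp1-deficient 1 and 79.3 CPM in control 1. Without Slc4a1 the sum was 30.5, 10.8 and 61.3 CPM in Foxp1-deficient libraries and 12.8, 7.56 and 53.1 CPM in controls. The split was not particular to intercalated cells. All 9 principal cell markers had a count in each library numbered 3. In Foxp1-deficient libraries 1 and 2, 3 and 0 of the 9 had one, and in controls 1 and 2, 5 and 2. The other tubule markers given above also summed highest in the libraries numbered 3. In bulk RNA, fewer cells of a type and less RNA per cell cannot be told apart.

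Levels were compared between genes as CPM per kilobase of exon, since longer genes collect more reads. Over the 6 libraries, medians ran from 90.8 CPM per kilobase for Atp6v1g1 to 0 for Atp6v1b1, Atp6v1g3 and Atp6v1e2. Atp6v1g1, a peripheral stalk subunit, was followed by Atp6v0d1 (54.6), the rotor subunit gene Atp6v1f (50.3), Atp6v1d (39.3), Atp6ap1 (37.3), Atp6v0b (34.5) and Atp6v0e (32.0). The ranges of these neighbours overlapped. Next stood Atp6v1e1 (21.5), Atp6v1a (19.6), Atp6ap2 (18.5), Atp6v1b2 (18.5), Atp6v1c1 (18.0), Atp6v0c (16.7) and Atp6v0a1 (12.4), whose ranges overlapped as well. Lower still stood Tcirg1 (8.81), Atp6v0a2 (7.38), Atp6v1h (5.67) and Atp6v0e2 (3.53), and below 1 lay Atp6v0a4 (0.764), Atp6v1g2 (0.591), Atp6v1c2 (0.188) and Atp6v0d2 (0.0367). Regulators were low, with Oxr1 at 6.14, Rogdi at 5.40, Wdr7 at 2.73, Ncoa7 at 2.49, Dmxl1 at 1.65 and Dmxl2 at 0.491 CPM per kilobase. The exon length is the union of all annotated exons, so long or unused exons lower this measure. Atp6v1e2, known as a testis isoform, had 0 counts in all 6 libraries, and all counts of subunit E were of Atp6v1e1.

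**Figure D2:**
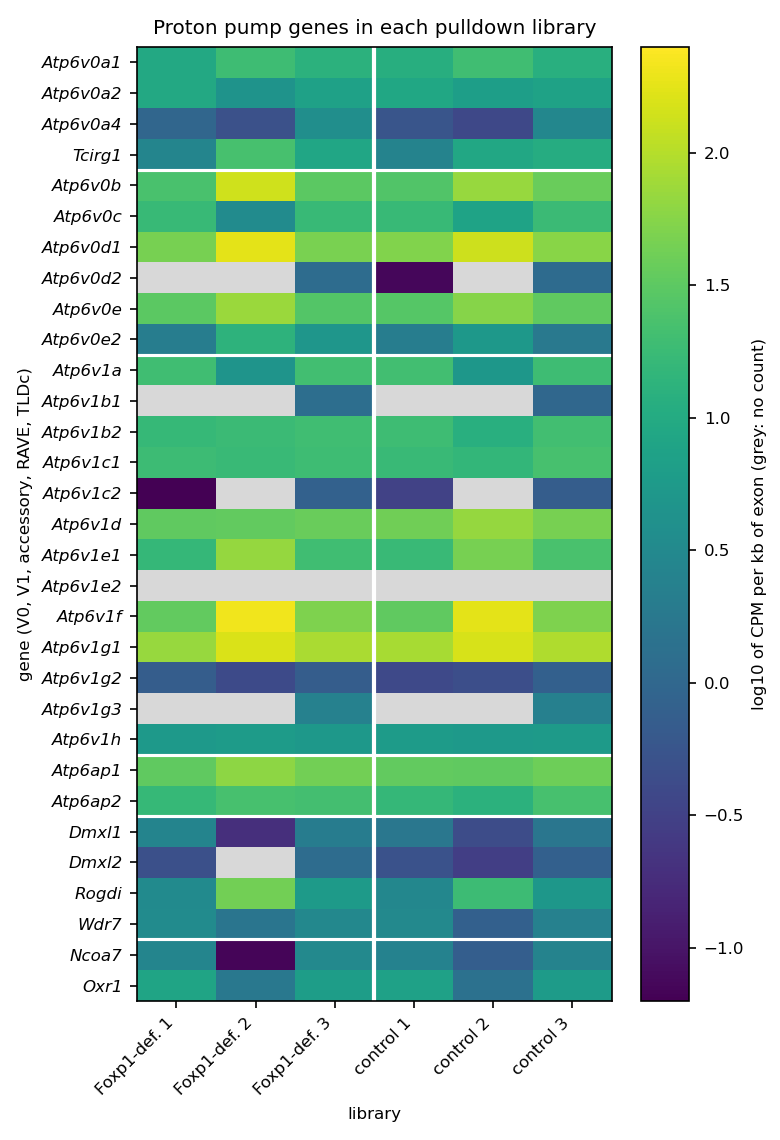
Level of each of the 31 members (rows, by role) in each library (columns, Foxp1-deficient left of the white line), as log10 of CPM per kilobase of exon; grey marks no count. The libraries numbered 2 stand apart in both groups, with bright Atp6v0d1, Atp6v1f and Atp6v0b and dark Atp6v1a and Atp6v0c, and Atp6v1b1 and Atp6v1g3 have counts only in the libraries numbered 3.

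Between Foxp1-deficient and control libraries no member passed the test. The quasi-likelihood test of edgeR, Benjamini-Hochberg adjusted over 14311 genes, called 0 of them at an adjusted p under 0.05 (0.0%), and 0 of 27 members. At an unadjusted p under 0.05 there were 103 genes (0.72%) and 0 members. A replicate block in the edgeR model gave 0 calls, and 762 genes (5.32%) had an unadjusted p under 0.05, with Atp6v1d the 1 member among them. DESeq2 called 6 genes (0.0419%) without the block and 171 (1.19%) with it, and limma-voom called 0 (0.0%) and 244 (1.7%), with 0 members in each. The log2 fold change was above 0 for 18 members and below 0 for 9, beside 7675 and 6636 of all genes tested. The median was 0.15 over members and 0.03 over all genes. With the block 16 were above 0 and 11 below, and the median was 0.06. These counts do not show that members were unchanged, since most of the SEs below exceed the fold change. All adjusted p-values of members in the edgeR fit without a block were 0.9998.

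**Figure D3:**
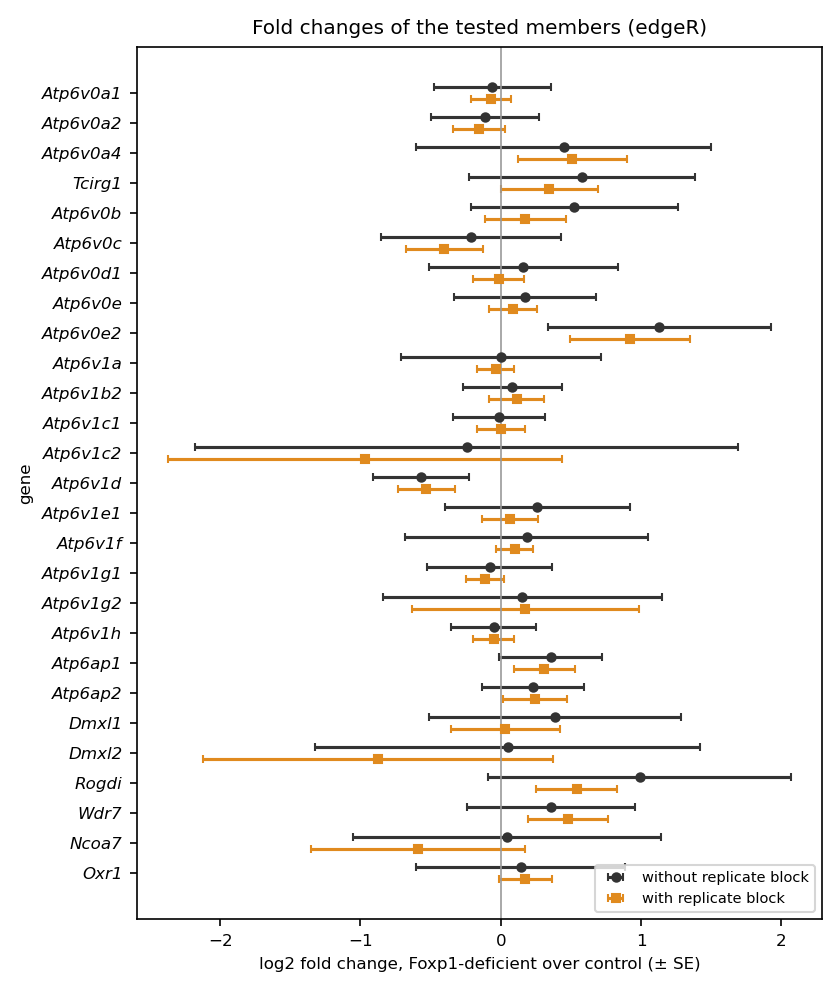
Log2 fold change of the 27 tested members, Foxp1-deficient over control, on the horizontal axis, from edgeR without (black circles) and with (orange squares) the replicate block; bars are 1 SE. Most bars cross 0 without the block, Atp6v1d lies at -0.57 without it and -0.53 with it, and the block shortens most bars.

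Atp6v1d had the lowest unadjusted p of the members. It encodes the central rotor shaft of V1 and had 47.0, 47.6 and 52.6 CPM in Foxp1-deficient libraries 1, 2 and 3 and 57.5, 95.8 and 64.8 CPM in controls 1, 2 and 3. Every Foxp1-deficient library was below every control, as for 2.11% of all genes tested, and no member lay above in that way (2.64%). Atp6v1d averaged 49.1 ± 3.11 CPM in Foxp1-deficient libraries and 72.7 ± 20.3 CPM in controls (SD, n = 3 each). The log2 fold change was -0.57 (SE 0.34, unadjusted p = 0.141, edgeR quasi-likelihood test), and -0.53 with the block (SE 0.20, unadjusted p = 0.0467, adjusted p = 0.853). Without both libraries numbered 2 it was -0.29. Scaled to library totals in place of TMM, Foxp1-deficient 3 had 60.7 CPM and control 1 had 60.6 CPM, so the groups then met and overlapped.

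The 10 tested V1 subunits, Atp6v1d included, had log2 fold changes above 0 in 4 and below 0 in 6, with a median of -0.01. Atp6v1a, the catalytic A subunit, had 119, 27.4 and 125 CPM in Foxp1-deficient libraries and 124, 30.4 and 117.5 CPM in controls, low in both libraries numbered 2. Atp6v1b2, the widely expressed B subunit, had 86.6, 96.4 and 106 CPM in Foxp1-deficient libraries and 100.1, 63.4 and 109 CPM in controls (log2 fold change 0.08, SE 0.35). The groups of both genes overlapped. Atp6v1c1, which clamps the stalks, ranged from 36.1 to 40.7 CPM in Foxp1-deficient libraries and from 32.5 to 47.0 in controls (log2 fold change -0.01, SE 0.33). Atp6v1g1 had 79.3, 176.5 and 101 CPM in Foxp1-deficient libraries and 97.2, 173.5 and 105.5 CPM in controls (log2 fold change -0.08, SE 0.44), high in both libraries numbered 2. Atp6v1h, a regulatory subunit that holds back free V1, was the steadiest member, from 51.5 to 57.2 CPM in Foxp1-deficient libraries and from 53.2 to 58.9 in controls. Its coefficient of variation over the 6 libraries was 5.02%, against a median of 52.9% over tested members and 50.2% over all genes tested. This steadiness depended on TMM. Scaled to library totals, Atp6v1h ranged from 46.2 to 59.3 CPM in Foxp1-deficient libraries and from 44.9 to 63.8 in controls. Both libraries numbered 2 then lay below the other 4. Atp6v1f, of the rotor, had 36.7, 225.5 and 53.2 CPM in Foxp1-deficient libraries and 35.4, 188 and 53.7 CPM in controls. Atp6v1e1 had 64.8, 278 and 81.7 CPM in Foxp1-deficient libraries and 72.3, 187 and 95.2 CPM in controls. Both were high in the libraries numbered 2, and their groups overlapped. Atp6v1g2, a G isoform known from brain, stayed between 1.02 and 1.83 CPM in Foxp1-deficient libraries and between 0.997 and 2.04 in controls. Atp6v1c2 had a log2 fold change of -0.24 (SE 1.93) on counts that were near the floor outside the libraries numbered 3.

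Among the a subunits, which direct the pump to its membrane, each library held a different mix. Atp6v0a1 had 61.6, 124 and 84.8 CPM in Foxp1-deficient libraries and 73.8, 129.5 and 78.3 CPM in controls (log2 fold change -0.06, SE 0.42). Atp6v0a2, of the Golgi and endosomes, had 62.5, 30.3 and 49.4 CPM in Foxp1-deficient libraries and 59.7, 44.1 and 49.9 CPM in controls. The groups overlapped for both, and the libraries numbered 2 were the highest for a1 and the lowest for a2. Tcirg1, the a3 isoform of lysosomes and of osteoclasts, had 12.3, 99.1 and 37.8 CPM in Foxp1-deficient libraries and 11.5, 41.0 and 47.1 CPM in controls. The Foxp1-deficient value of 99.1 stood above all others, and the log2 fold change of 0.58 (SE 0.81) was -0.40 without that library. Per kilobase, Tcirg1 made up 12.3%, 48.1% and 26.0% of the 4 a isoforms in Foxp1-deficient libraries and 11.1%, 25.6% and 32.2% in controls. Macrophages express Tcirg1 too: of 12 macrophage markers, 12 had a count in every library, and their sum was 61.2, 394 and 734.5 CPM in Foxp1-deficient libraries and 341.5, 610.2 and 1233 CPM in controls. Their part in the Tcirg1 values was not tested. Atp6v0a4 had 4.81, 2.42 and 18.9 CPM in Foxp1-deficient libraries and 2.79, 1.89 and 14.4 CPM in controls. It was higher in the Foxp1-deficient library of each pair, as were Rogdi, Wdr7 and Oxr1 among members (4 of 27, against 16.5% of all genes tested), and the groups overlapped. Its log2 fold change was 0.45 (SE 1.05), and -0.83 without Foxp1-deficient 3.

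The remaining V0 subunits include those of the proteolipid ring and its collar. Atp6v0b and Atp6v0c both encode ring proteolipids and moved apart between libraries. Atp6v0b had 47.4, 281 and 64.5 CPM in Foxp1-deficient libraries and 54.2, 142 and 77.0 CPM in controls, whereas Atp6v0c had 56.8, 11.6 and 56.6 CPM in Foxp1-deficient libraries and 57.3, 25.9 and 61.6 CPM in controls. Atp6v0b was thus highest and Atp6v0c lowest in both libraries numbered 2, and groups overlapped for both. The log2 fold change of Atp6v0b was 0.52 (SE 0.74), and -0.69 without Foxp1-deficient 2. In each pair Atp6v0c was lower in the Foxp1-deficient library, as was Atp6v1d (2 of 27, against 16.0% of all genes tested). Other gene rows share 27.4% of the exon bases of Atp6v0c, 11.8% of those of Atp6v0b, 10.2% of Rogdi and 9.86% of Atp6v0a2, and counting used no strand, so these counts are less certain. Atp6v0d1 had 81.9, 323 and 85.0 CPM in Foxp1-deficient libraries and 92.8, 241 and 103 CPM in controls (log2 fold change 0.16, SE 0.67, and -0.80 without Foxp1-deficient 2). Atp6v0e, a small V0 subunit, had 99.98, 239 and 90.3 CPM in Foxp1-deficient libraries and 92.0, 180.0 and 109 CPM in controls. Its paralog Atp6v0e2, best known from brain, had 4.98, 31.6 and 11.7 CPM in Foxp1-deficient libraries and 5.12, 12.6 and 4.33 CPM in controls. Foxp1-deficient 2 and 3 were high against their numbered controls, Foxp1-deficient 1 was not, and the groups overlapped. Atp6v0e2 had the largest log2 fold change of the tested members, 1.13 (SE 0.80, unadjusted p = 0.196, edgeR quasi-likelihood test), and 0.19 without Foxp1-deficient 2. Neuron and glia markers summed to 206, 134.5 and 67.9 CPM in Foxp1-deficient libraries and 162, 70.4 and 63.0 CPM in controls, and their part in it was not tested.

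Both accessory genes lay above 0 in fold change without passing the test. Atp6ap1, which helps assemble V0, had 101, 187 and 132 CPM in Foxp1-deficient libraries and 103, 102 and 123 CPM in controls. Foxp1-deficient 2 was the highest and the groups overlapped. Its log2 fold change was 0.36 (SE 0.37), and 0.05 without both libraries numbered 2. Atp6ap2, the prorenin receptor, had 42.0, 58.3 and 55.0 CPM in Foxp1-deficient libraries and 40.9, 33.5 and 58.2 CPM in controls (log2 fold change 0.23, SE 0.36). Its groups overlapped.

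All 6 regulators of assembly had log2 fold changes above 0, with a median of 0.25, and none passed the test. With the replicate block 4 were above 0 and 2 below in edgeR, 3 and 3 in DESeq2, and 6 and 0 in limma-voom, so the shared sign depended on the tool. Rogdi, the counterpart of a yeast RAVE subunit, had 7.86, 102 and 13.3 CPM in Foxp1-deficient libraries and 6.84, 43.1 and 12.0 CPM in controls. Each library numbered 2 stood far above the other 2 of its group, and the groups overlapped. The log2 fold change of 0.99 (SE 1.08) was -0.95 without Foxp1-deficient 2. Wdr7, the rabconnectin partner of the Dmxl proteins, had 24.4, 11.3 and 21.8 CPM in Foxp1-deficient libraries and 22.2, 5.67 and 17.1 CPM in controls (log2 fold change 0.36, SE 0.60, and -0.03 without control 2). Dmxl1, a large RAVE scaffold, had 57.2, 4.21 and 45.2 CPM in Foxp1-deficient libraries and 36.5, 9.45 and 35.7 CPM in controls. Dmxl2, its paralog, had 6.39, 0 and 15.7 CPM in Foxp1-deficient libraries and 6.78, 3.89 and 10.7 CPM in controls. For the 3 genes the libraries numbered 2 were the lowest of each group, and the groups overlapped. The TLDc proteins bind the pump. Ncoa7 had 14.5, 0.383 and 16.5 CPM in Foxp1-deficient libraries and 13.1, 3.99 and 13.5 CPM in controls, and Oxr1 had 41.7, 8.93 and 32.7 CPM in Foxp1-deficient libraries and 37.5, 7.25 and 30.7 CPM in controls. Ncoa7 in Foxp1-deficient 2 rests on 3 counts. Again the libraries numbered 2 were lowest and the groups overlapped.

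More members were set apart by library number than by group, and so were more of all genes tested. In both libraries numbered 2, 9 of 27 tested members lay above the other 4 libraries (24.6% of all genes tested) and 11 lay below (34.5%). Above were Atp6v0a1, Atp6v0b, Atp6v0d1, Atp6v0e, Atp6v0e2, Atp6v1e1, Atp6v1f, Atp6v1g1 and Rogdi. Below were Atp6v0a2, Atp6v0a4, Atp6v0c, Atp6v1a, Atp6v1c1, Atp6v1c2, Dmxl1, Dmxl2, Wdr7, Ncoa7 and Oxr1. Scaled to library totals, 8 members lay above (17.1% of all genes tested) and 14 below (44.4%), and 8 and 11 of these were the same genes as with TMM. RNA ratios of subunits that stand together in 1 complex therefore differed between libraries, and protein was not measured. Per kilobase, Atp6v1a to Atp6v1b2 was 1.21, 0.250 and 1.04 in Foxp1-deficient libraries 1, 2 and 3 and 1.09, 0.420 and 0.946 in controls 1, 2 and 3. Per kilobase, Atp6v0c to Atp6v0b was 0.726, 0.0251 and 0.532 in Foxp1-deficient libraries and 0.641, 0.111 and 0.485 in controls. Both ratios were lowest in the libraries numbered 2 of either group. For Atp6v0c to Atp6v0b this follows from the lists above, and Atp6v1a also comes from the list below. The ratios therefore describe the same shift and add no separate support for it.

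The shift of the libraries numbered 2 went with exon length. Its log2 ratio to the mean of libraries 1 and 3 (0.5 CPM added) had a Spearman rho with length of -0.58 in Foxp1-deficient libraries and -0.58 in controls over the 27 tested members. Over all genes tested rho was -0.32 in Foxp1-deficient libraries and -0.31 in controls, and all points share the same libraries. With nothing added, short Atp6v1f, with 1063 exon bases, had log2 ratios of 2.33 in Foxp1-deficient libraries and 2.08 in controls, while Dmxl1, with 21860, had -3.60 and -1.93. Atp6v1h, with 9746, kept near 0 with TMM scaling, at 0.12 and -0.12. Not every short gene was high, as Atp6v1c1, with 2097, had -0.14 and -0.37. Depth also differed, and the part of length or depth in the member values was not tested.

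**Figure D4:**
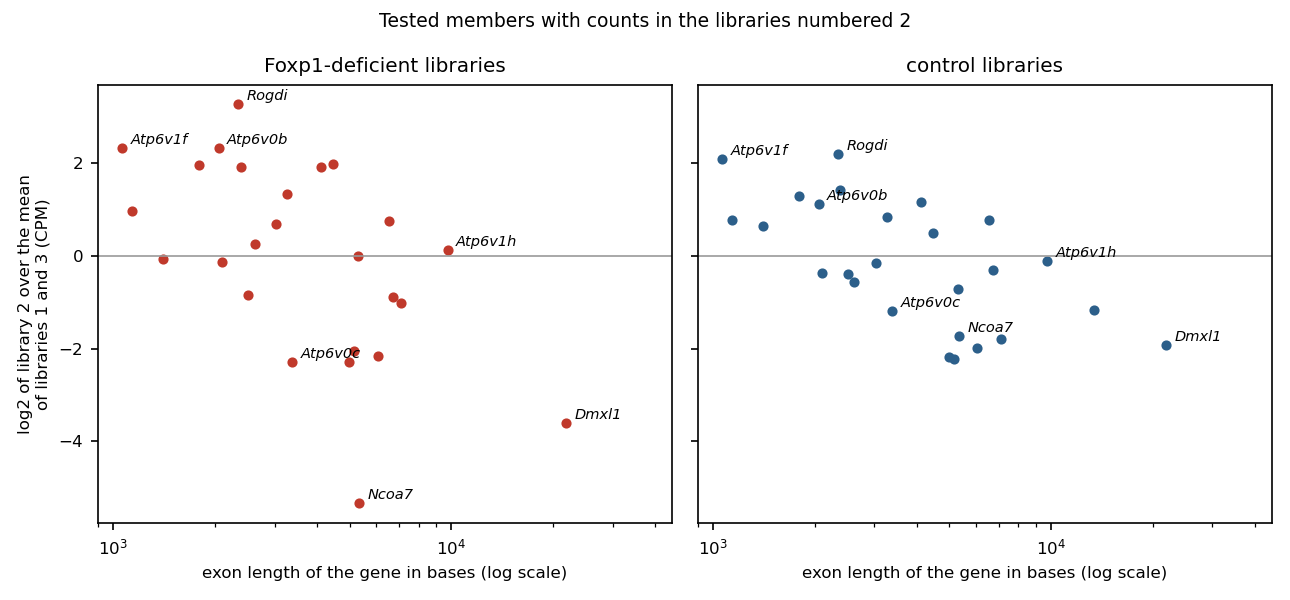
Log2 of the level in library 2 over the mean of libraries 1 and 3 (CPM, vertical) against exon length in bases (horizontal, log scale) for tested members with a count in library 2, Foxp1-deficient libraries left and controls right. Short Atp6v1f (2.33 and 2.08) lies high and long Dmxl1 (-3.60 and -1.93) lies low in both groups. Not every short gene lies high, as Atp6v1c1, with 2097 bases, is at -0.14 and -0.37.

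In both libraries numbered 3, 6 of 27 tested members lay above the other 4 (13.4% of all genes tested) and 0 below (7.65%). They were Atp6v0a4, Atp6v1b2, Atp6v1c1, Atp6v1c2, Atp6v1g2 and Dmxl2. Scaled to library totals, 9 lay above (21.0% of all genes tested), with Atp6ap2, Atp6v0c and Atp6v1a added, and 0 below (3.49%). The 3 members too low to test that had counts, Atp6v0d2, Atp6v1b1 and Atp6v1g3, were also highest in the libraries numbered 3. For both libraries numbered 1, 3 of 27 tested members lay above the other 4 (19.0% of all genes tested) and 7 below (12.9%).

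Genes that work beside the pump gave no call in the edgeR fit either. Of 48 listed, 47 were tested, and 28 had a log2 fold change above 0 and 19 below, with a median of 0.03. By list, chloride and cation partners of acid organelles had 7 above and 3 below (median 0.31), TFE factors and Ragulator-Rag 6 and 8 (median -0.07), lysosomal proteins 11 and 7 (median 0.05), ER assembly factors 2 and 1, and other TLDc genes 2 and 0. Every Foxp1-deficient value was above every control value in 5 of the 47, Tpcn1, Clcn6, Ostm1, Neu1 and Tldc1 (2.64% of all genes tested), and below every control value in 0 (2.11%). Tpcn1, an endolysosomal cation channel gene, had 64.7, 65.4 and 57.1 CPM in Foxp1-deficient libraries and 44.1, 51.9 and 35.3 CPM in controls. Its log2 fold change was 0.51 (SE 0.33, adjusted p = 0.9998, edgeR quasi-likelihood test), and limma-voom with the block called it (adjusted p = 0.0444), which the other settings run did not. Clcn6, a chloride-proton exchanger gene of late endosomes, had 15.8, 30.7 and 18.5 CPM in Foxp1-deficient libraries and 11.8, 10.9 and 14.3 CPM in controls (log2 fold change 0.81, SE 0.44). Neu1, encoding lysosomal sialidase, had 35.1, 64.9 and 36.5 CPM in Foxp1-deficient libraries and 17.0, 32.9 and 34.9 CPM in controls (log2 fold change 0.69, SE 0.45), and its groups nearly met. Rragd, a Rag GTPase gene of the lysosome surface, had 7.07, 2.93 and 4.17 CPM in Foxp1-deficient libraries and 14.4, 9.35 and 6.07 CPM in controls, with overlap (log2 fold change -1.07, SE 0.64). Tfe3, a TFE factor gene, had log2 fold change 0.56 (SE 0.51) and overlapping groups, with 52.0, 155.5 and 65.3 CPM in Foxp1-deficient libraries and 45.6, 82.0 and 57.4 CPM in controls. Tldc1, a TLDc gene outside the members, had 9.95, 11.9 and 8.47 CPM in Foxp1-deficient libraries and 7.71, 3.05 and 7.05 CPM in controls (log2 fold change 0.76, SE 0.58).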

How the data were processed

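Ribosome-bound RNA of 3 Foxp1-deficient and 3 control libraries was measured. The sample titles gave the group and the replicate number. The deposited values are raw counts per gene, which the authors made with featureCounts 1.5.1 on read pairs, summed over the exons of an mm10 annotation (version 86), per the file headers. No strand option appears in that command. Other tools named, per the submitters' processing notes, are STAR, Trimmomatic, FastQC, SAMtools, deepTools and DESeq2. Exon length in bases was also deposited by the authors.

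The test was that of edgeR 4.0.16 in R 4.3.3 (TMM, filterByExpr, quasi-likelihood F test, Benjamini-Hochberg adjustment at 0.05) over 14311 genes. Log2 fold changes are Foxp1-deficient over control, and tests were two-sided. CPM were computed from the deposited counts with TMM-scaled totals. Library totals of 9710048 to 18958196 counts put the upper limit of an observed 0, taken as 3 counts, at 0.137 to 0.383 CPM. Such limits and intervals hold for counting error alone, because reads carried no molecular identifiers. The procedure was run on simulated counts whose levels and spread came from a fit on replicate number alone. That run does not show how large a change the fit without a block could call in these libraries. Equally numbered libraries deviated from their group means together (r over genes 0.57, 0.53 and 0.62 for numbers 1, 2 and 3). The labels state no pairing, so the edgeR fit behind the results had no block. Fits with the replicate number as a block were alternatives, and their values are named as such.

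Fold changes are given for tested members among the 5 kidney-enriched isoforms and their 5 partners and for the 8 members of lowest unadjusted p; of each related list at most 2 genes of lowest p are named. The members and lists were chosen with earlier results of these data known. Alternatives were RLE size factors, library totals, no low-count filter, a filter of 1 CPM in 3 libraries, DESeq2 1.42.0, limma-voom (limma 3.58.1) with quality weights, the replicate block, and each library or number left out. The scaling of member levels to library totals and the spread over libraries were added after seeing the data. Promoter windows came from a RefSeq table on GRCm38.p6. Figures were drawn with matplotlib 3.10.9.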

Additional observations from a re-analysis of the deposited data

How the results depend on the processing

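Over 18 alternative settings 0 members were called in each, whereas the count over all genes, 0 in the edgeR fit, was 6 with DESeq2, 244 with limma-voom and a replicate block and 171 with DESeq2 and a replicate block, and 1 related gene was called with limma-voom and the block. The directions of Atp6v1d, Atp6v0e2, Atp6ap1 and Foxp1 were kept in all 18. The median log2 fold change of tested members was -0.0066 with limma-voom and -0.0077 with limma-voom and the replicate block. In limma-voom, Atp6v0d1 was -0.21, Atp6v1b2 -0.071, Tcirg1 -0.13, Atp6v0b -0.18 and Atp6ap2 -6.4e-05. In limma-voom with the replicate block, Atp6v0d1 was -0.17, Atp6v1b2 -0.061, Tcirg1 -0.067 and Atp6v0b -0.095. In edgeR with the replicate block Atp6v0d1 was -0.014 and Atp6v1c1 0.00074, and in DESeq2 with the block they were -0.012 and 0.0018. For these values the cause was not tested. Leaving out 1 library or 1 number moved the member median from -0.025 to 0.31, Foxp1 from -0.93 to -0.27, Atp6v1d from -0.71 to -0.29, Atp6v0e2 from 0.19 to 1.74 and Atp6ap1 from 0.05 to 0.53. Ranges that crossed 0 were -0.95 to 2.09 for Rogdi, -0.69 to 0.98 for Atp6v0b, -0.80 to 0.72 for Atp6v0d1, -0.40 to 1.08 for Tcirg1, -0.83 to 1.90 for Atp6v0a4, -3.35 to 0.85 for Atp6v1c2, -0.35 to 0.23 for Atp6v0a1, -0.47 to 0.22 for Atp6v1g1, -0.13 to 0.24 for Atp6v1b2, -0.13 to 0.15 for Atp6v1c1, -0.033 to 0.76 for Wdr7 and -0.024 to 0.48 for Atp6ap2. Where a group was left with fewer libraries, its spread was pooled with that of the other group. The difference between groups in log2 isoform ratio ran, with 1 library or number left out, from -0.25 to 1.56 for Atp6v0a4, -3.29 to 0.90 for Atp6v0d2, -2.27 to 2.10 for Atp6v1b1, -1.97 to 0.32 for Atp6v1c2 and -2.19 to 2.48 for Atp6v1g3. The kidney-enriched isoforms other than Atp6v0a4 have counts above the floor in both groups only in the libraries numbered 3, so what can be said of them rests on these 2 libraries.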
